A study of Mus musculus with 8 samples.

Results

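The 10 genes described here build, gather and clear the synapse between motor nerve and muscle fibre. They were taken by name from the deposited table: Chrna1, Chrnb1, Chrnd, Chrne and Chrng for the acetylcholine receptor, Musk, Dok7, Rapsn and Lrp4 for the machinery that clusters it, and Ache for the enzyme that ends the signal. All 10 were among the 14012 genes of the table. The rule that picked them uses names without a filter on levels, but they were chosen with earlier results of these data known. Their counts beside those of all genes are therefore a description. Their mRNA was compared between 4 libraries of quadriceps femoris (QF) muscle labelled as skeletal muscle specific Grpel1 knockout (Grpel1 skm-/-) and 4 labelled as Grpel1 flox/flox control, 1 library per mouse.

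The muscle acetylcholine receptor is a ring of subunits that opens when acetylcholine binds. In fetal and denervated muscle the ring holds alpha, beta, delta and the gamma subunit of Chrng, and in innervated adult muscle the epsilon subunit of Chrne takes the place of gamma. Agrin from the nerve binds LRP4 on the fibre, LRP4 activates the kinase MuSK, DOK7 keeps MuSK active, and rapsyn (Rapsn) packs the receptors under the nerve ending. In adult fibres the few nuclei under the synapse make most of the mRNA of these genes, and loss of nerve activity lets the other nuclei of the fibre make part of it again.

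In the knockout mice both Grpel1 alleles carry loxP sites, and a Cre-ERT2 recombinase under the human skeletal muscle alpha-actin promoter, switched on by tamoxifen given to juvenile mice, deletes the gene in muscle fibres. GRPEL1 is a co-chaperone of the mitochondrial HSP70 that draws proteins into the matrix. Nerve, Schwann, satellite and other cells outside the fibre are not targets of this promoter and keep the gene. The control mice carry the same floxed alleles, so every mouse of both groups had the floxed gene. Whether the control mice of these libraries carried Cre or had been given tamoxifen is not stated, and the labels give no treatment. For body weight the study calls its Grpel1 flox/flox littermates untreated. It reports rapid weight loss in the knockouts, unlike these littermates or wild type mice given tamoxifen. That comparison was of body weight and not of mRNA. The study gives its mice as male, without the age at sampling of the mouse behind each library. In these libraries an effect of tamoxifen or of Cre on mRNA therefore cannot be told apart from that of the knockout.

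The libraries held 16017565 to 18813042 counts in control muscle and 16424608 to 20361144 counts in knockout muscle. At this depth the limit that a count of 0 allows (3 counts) was 0.119 to 0.242 CPM, edgeR's read count per library size after TMM scaling for composition. The TMM factors were 0.747 to 0.844 in control muscle and 1.19 to 1.33 in knockout muscle, and without them every log2 fold change would be higher by close to the shift in the median of all genes, which was 0.07 with TMM and 0.73 with library totals alone. The count over the whole of Grpel1 did not separate the groups (log2 fold change -0.07, edgeR adjusted p = 0.49), so it does not check the labels. Gdf15, a cytokine known to rise in muscle with mitochondrial defects and named here after its values were seen, had 1, 0, 1 and 2 reads in the libraries labelled control and 1555, 786, 1458 and 1307 reads in those labelled knockout. The muscle fibre markers identified the tissue, at a summed level of 250938 to 326814 CPM in control muscle and 87314 to 125779 CPM in knockout muscle. Of 8 motor nerve terminal markers only Stmn2 was in the table, at 1.13 to 3.97 CPM in control muscle and 1.10 to 1.49 CPM in knockout muscle. Its log2 fold change of -1.10 was not called by edgeR, though its unadjusted p was under 0.05 and DESeq2 called it lower.

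Of the 10 genes, 7 were higher in the knockouts at an adjusted p under 0.01 (edgeR's quasi-likelihood test, Benjamini-Hochberg over all genes): Chrng, Chrnd, Chrna1, Musk, Chrnb1, Dok7 and Lrp4. Over all genes tested, 23.6% were called higher. None of the 10 was called lower, against 21.1% of all genes, and none had an unadjusted p under 0.05 in that direction. DESeq2 also called 0 lower. In the same 7 genes each knockout library lay above every control library, which held for 29% of all genes in this direction and for 24.4% with the knockouts lower. The median log2 fold change of the 10 genes was 1.03 (1.02 without the control library described next), beside 0.07 over all genes. Chrne, Rapsn and Ache did not pass the test.

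**Figure D1:**
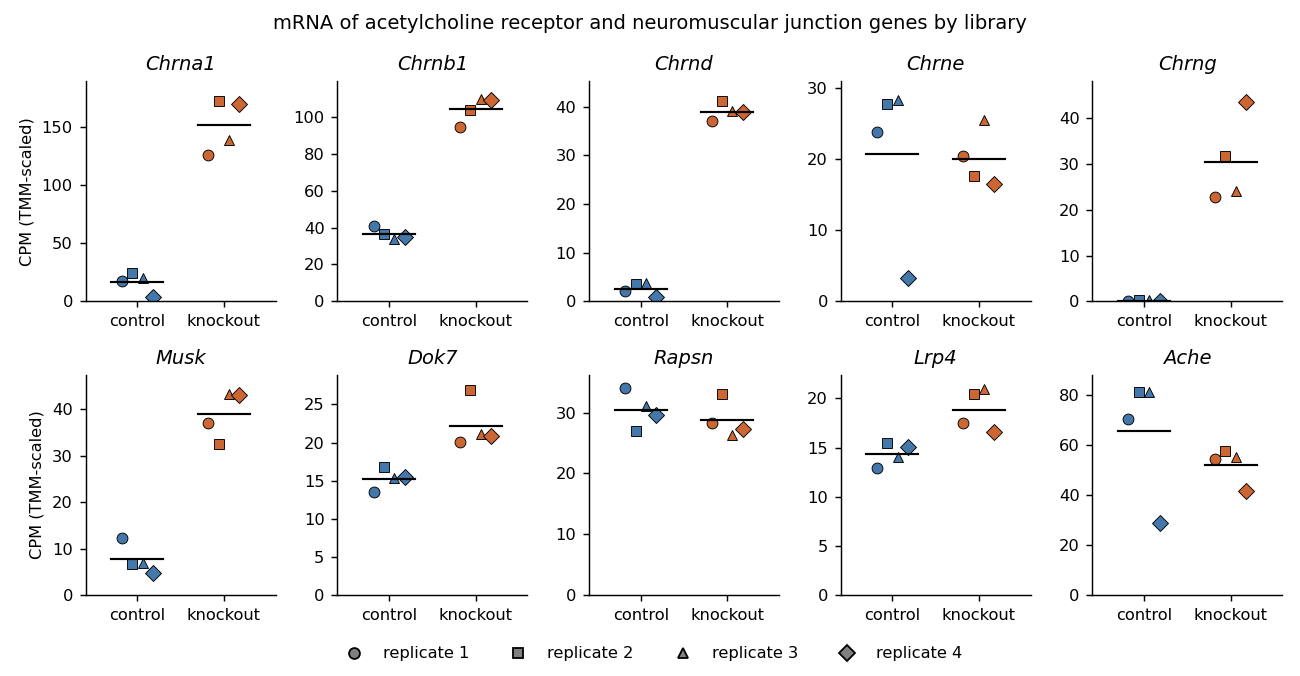
TMM-scaled CPM of the 10 genes in each of the 4 control and 4 knockout libraries, on a linear axis from 0, with 1 point per library, a marker shape per replicate and a line at the group mean. In 7 panels the knockout points lie above every control point, while in the panels of Chrne, Rapsn and Ache the groups overlap, and control replicate 4 is the lowest control in 6 panels.

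1 control library stood apart at these genes. Control replicate 4 was the lowest control at Chrna1, Chrnd, Chrne, Chrng, Musk and Ache, and below 50% of the mean of the other 3 controls at 5 of them (all but Musk). At Chrng this rested on 0 reads against 1, 5 and 3 in the other controls, counts too few to set the library apart. Ranked by how far it fell below the mean log2 CPM of control replicates 1 to 3 over 12152 genes with a mean of at least 1 CPM, Chrne was the 4th, Chrna1 the 10th, Chrnd the 30th, Ache the 44th and Musk the 189th lowest gene. At Chrnb1, Rapsn, Dok7 and Lrp4 the same library lay within the range of the other controls. Its total of 18813042 counts was the highest of the control libraries. Results on those of the 10 genes that were low in it are given with and without this library.

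Chrng, the fetal gamma subunit, was close to absent from the control muscle and readily counted in the knockout muscle. It lies on chromosome 1 of GRCm38 from 87205811 to 87211835 on the plus strand. The control libraries held 1, 5, 3 and 0 reads, and the knockout libraries 545, 692, 582 and 1098 reads. On the scaled level these were 0.0808, 0.327, 0.215 and 0 CPM in controls 1 to 4 and 22.7, 31.7, 24 and 43.6 CPM in knockouts 1 to 4. Controls 1, 3 and 4 held no more than 3 reads, the limit that a count of 0 allows. Pooled over the libraries, 9 control reads stood against 2917 knockout reads, or 0.157 CPM (exact 95% interval 0.0716 to 0.297) against 30.6 CPM. The ratio of the pooled levels was 196 (95% interval 103 to 429), where both intervals cover counting error only. The fitted log2 fold change was 7.55 (SE 0.43, edgeR adjusted p = 5.9e-07), and 17 genes of the table, Chrng counted, reached that value. It was 8.24 without control replicate 2, the control with the most reads, and 7.10 without control replicate 4.

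Chrnd, the delta subunit that is part of both the fetal and the adult receptor, lies next to Chrng, 5741 bases before it on the same strand (chromosome 1, 87190597 to 87200070). Its level was 2.10, 3.47, 3.72 and 0.882 CPM in controls 1 to 4 and 37.0, 41.1, 39.1 and 38.9 CPM in knockouts 1 to 4. The knockout libraries were all close to one another and far above the controls, of which replicate 4 was lowest. The log2 fold change was 3.94 (SE 0.29, edgeR adjusted p = 2.4e-06), and 3.64 without control replicate 4. The next gene downstream of Chrng, Eif4e2, had a log2 fold change of 0.03 and did not pass the test.

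Chrna1 encodes the alpha subunit that carries the acetylcholine binding site, and lies on chromosome 2 from 73563281 to 73580338 on the minus strand. Its level was 17.9, 24.1, 20.04 and 3.91 CPM in controls 1 to 4 and 126, 172, 139 and 170 CPM in knockouts 1 to 4. Every knockout library was far above the highest control. It changed by 3.21 on the log2 scale (SE 0.41, edgeR adjusted p = 9.3e-05), and 2.87 without control replicate 4.

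Chrnb1, the beta subunit (chromosome 11, 69784036 to 69795937, minus strand), was the only receptor subunit at a similar level in all 4 controls, with 41.0, 36.5, 33.7 and 35.1 CPM. The knockouts had 94.6, 104, 110 and 109 CPM. The groups did not overlap, and the spread within each was small beside the gap between them. The log2 fold change of 1.51 had the smallest standard error of the 10 genes (0.08, edgeR adjusted p = 4.7e-07). Its neighbours Zbtb4, 10 bases away on the other strand, and Fgf11, 131 bases away on the same strand, had log2 fold changes of -0.90 and 0.12.

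Chrne, the adult epsilon subunit (chromosome 11, 70614883 to 70619194, minus strand), did not pass the test. Its level was 23.8, 27.6, 28.2 and 3.28 CPM in controls 1 to 4 and 20.3, 17.5, 25.5 and 16.4 CPM in knockouts 1 to 4. Control replicate 4 lay far below every other library, control replicates 2 and 3 were the highest, and knockout 3 was above control replicate 1. The log2 fold change was -0.05 (SE 0.47, edgeR adjusted p = 0.94). Without control replicate 4 it was -0.41 (edgeR adjusted p = 0.042), which also missed the threshold of 0.01, and the knockout and control levels still overlapped. With library totals alone the sign turned, to 0.63.

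The balance between the fetal and the adult subunit was then measured within each library. It was taken as the read count of Chrng over the sum of Chrng and Chrne, each divided by its exon width. This share does not depend on library scaling. It was 0.281% in control replicate 1 (exact 95% interval 0.00711 to 1.56), 0.972% in control replicate 2 (0.316 to 2.26) and 0.627% in control replicate 3 (0.129 to 1.82). In control replicate 4 it was 0%, where the 52 reads of Chrne allow a share of up to 4.83%. In knockouts 1 to 4 the share was 48.1%, 59.9%, 43.9% and 68.8%. The gamma mRNA thus was within counting error of the epsilon mRNA in knockout 1 (exact 95% interval 45.0 to 51.2), above it in knockouts 2 and 4 and below it in knockout 3, and it made up less than 1% of the pair in controls 1 to 3. The means were 0.470% ± 0.421 and 55.2% ± 11.3 (SD, n = 4 each). On the log2 scale, with 0.5 added to each count, the ratio of Chrng to Chrne was -7.12 ± 0.563 in control muscle and 0.312 ± 0.678 in knockout muscle (SD, n = 4 each). The difference of 7.44 had an exact two-sided permutation p of 0.0286 over 70 assignments, the smallest that 4 against 4 can give, and was 7.48 without control replicate 4. When labels were exchanged only within replicate numbers, a pairing that leaves 16 assignments, the exact permutation p was 0.125, the smallest possible there.

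Per exon base, the summed mRNA of the 5 subunits was 38.9, 41.2, 39.4 and 19.6 CPM per kb in controls 1 to 4 and 110, 129, 125 and 136 CPM per kb in knockouts 1 to 4. All knockouts were above all controls, and control replicate 4 was lowest. The means of 34.8 ± 10.2 and 125 ± 11 CPM per kb (SD, n = 4 each) differed 3.60-fold (exact permutation p = 0.0286, two-sided). Without control replicate 4, a comparison added after the data were seen, the control mean was 39.8 ± 1.25 CPM per kb (SD, n = 3) and the difference 3.14-fold (exact permutation p = 0.0286). That p is the smallest that 3 against 4 libraries can give. More nuclei making these mRNAs and more mRNA per nucleus cannot be told apart in a bulk library.

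The make-up of that sum differed between the groups. Chrna1 made up 10.1% ± 3.87 of it in control muscle and 28% ± 2.31 in knockout muscle, Chrnd 2.34% ± 0.796 and 10.5% ± 0.707, and Chrng 0.201% ± 0.183 and 12.5% ± 2.99 (SD, n = 4 each). Each of these 3 shares had an exact permutation p of 0.0286, or 0.0476 after Benjamini-Hochberg adjustment over the 5 subunits. Chrne made up 34.0% ± 15.9 in control muscle and 10.1% ± 2.48 in knockout muscle, and Chrnb1 53.3% ± 20 and 38.8% ± 1.88 (exact permutation p = 0.0857 for each, also after adjustment). The wide control spread of these last shares came with control replicate 4, in which Chrnb1 was 83.4% and Chrne 10.5% of the sum. Without it the control shares of Chrna1, Chrnd and Chrng were 12% ± 1.45, 2.61% ± 0.708 and 0.268% ± 0.153 (SD, n = 3). Each difference then had an exact permutation p of 0.0286, the smallest that 3 against 4 libraries can give. The control share of Chrne was then 41.8% ± 3.29 (SD, n = 3), and the difference of -31.7 percentage points had an exact permutation p of 0.0286. A share of the sum also falls where the other subunits rise. The level of Chrne itself was not called, at 13 CPM per kb in control muscle (16.7 without control replicate 4) and 12.5 CPM per kb in knockout muscle. The difference in the share of Chrnb1 was -4.48 points without control replicate 4 (exact permutation p = 0.143). Without control replicate 3 it was -19.0 points (exact permutation p = 0.0286).

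**Figure D2:**
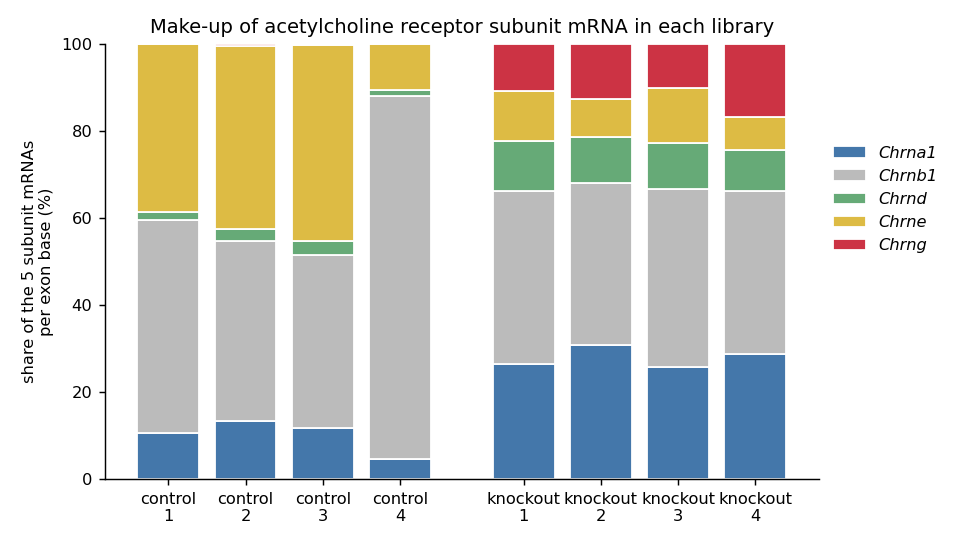
Stacked bars give, for each of the 8 libraries, the share in percent of the 5 receptor subunit mRNAs, each count divided by exon width. Chrng is not visible as a layer in control muscle (0.201% on average) and takes 12.5% on average in knockout muscle, Chrne takes 38.4% to 45.0% in control replicates 1 to 3 and 7.57% to 12.8% in knockout muscle, and control replicate 4 is mostly Chrnb1 (83.4%).

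The 250 bases before and 50 after the annotated start of 7 of the 10 genes (Chrna1, Chrnb1, Chrne, Chrng, Musk, Dok7 and Ache) were matched in a RefSeq promoter table of GRCm38.p6. They were searched for the E-box CANNTG, the site class bound by myogenic factors such as MYOD and myogenin, for its form CAGCTG, and on both strands for CCGGAA, the core of the N-box that Ets factors bind in synaptic genes. Of 32851 promoter windows of the same length, 72.3% held CANNTG, 17.6% held it 3 times or more, 16.3% held CAGCTG and 14.9% held CCGGAA. The windows below are of Chrng and Chrna1, which changed most among the subunits of these 7 genes, Chrne, which changed least, and the kinase Musk. Chrnd, which changed more than Chrna1, had no matched window. The letters searched for are in capitals (CAGCTG is also a CANNTG).
Chrng, chr1:87205561-87205860, plus strand: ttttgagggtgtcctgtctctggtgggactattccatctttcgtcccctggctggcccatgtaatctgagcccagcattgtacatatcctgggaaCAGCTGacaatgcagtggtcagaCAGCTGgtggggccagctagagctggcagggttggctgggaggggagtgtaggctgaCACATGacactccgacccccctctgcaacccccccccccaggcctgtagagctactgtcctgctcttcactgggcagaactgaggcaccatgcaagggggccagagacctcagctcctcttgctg
Chrna1, chr2:73580289-73580588, minus strand: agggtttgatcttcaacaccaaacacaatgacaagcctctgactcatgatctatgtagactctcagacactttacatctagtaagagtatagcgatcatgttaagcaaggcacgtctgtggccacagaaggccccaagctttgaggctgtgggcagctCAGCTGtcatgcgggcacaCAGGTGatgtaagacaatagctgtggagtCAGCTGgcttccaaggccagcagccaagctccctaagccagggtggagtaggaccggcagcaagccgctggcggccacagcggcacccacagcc
Musk, chr4:58285712-58286011, plus strand: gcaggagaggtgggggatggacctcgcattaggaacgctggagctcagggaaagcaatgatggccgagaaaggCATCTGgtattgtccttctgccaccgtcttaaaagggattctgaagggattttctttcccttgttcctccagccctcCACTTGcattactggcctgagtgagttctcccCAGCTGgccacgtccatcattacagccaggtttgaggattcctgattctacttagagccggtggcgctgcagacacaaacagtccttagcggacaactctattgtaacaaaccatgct
Chrne, chr11:70619145-70619444, minus strand: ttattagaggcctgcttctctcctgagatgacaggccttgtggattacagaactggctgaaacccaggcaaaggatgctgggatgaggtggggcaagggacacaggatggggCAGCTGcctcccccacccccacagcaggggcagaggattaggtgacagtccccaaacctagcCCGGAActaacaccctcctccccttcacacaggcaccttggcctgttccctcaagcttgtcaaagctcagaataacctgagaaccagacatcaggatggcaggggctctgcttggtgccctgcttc

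Chrng, Chrna1, Musk and Chrnb1 each held 3 E-boxes. Those of Chrng began 155, 132 and 75 bases before the start, the first and second of them CAGCTG, and those of Chrna1 began 92, 73 and 44 bases before it, the first and last of them CAGCTG. Musk held 1 CAGCTG, 68 bases before the start, and Chrnb1 none. Chrne held 1 E-box, a CAGCTG, and was the only one of the 7 with CCGGAA, 76 bases before the start. Dok7 held 1 E-box at 1 of its 2 listed starts and none at the other, and Ache held 1. These letter matches are a description of the windows, and no binding was measured.

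Musk, the kinase at the centre of receptor clustering (chromosome 4, 58285962 to 58374303, plus strand), had 12.4, 6.68, 7.01 and 4.85 CPM in controls 1 to 4 and 37.1, 32.6, 43.2 and 43.0 CPM in knockouts 1 to 4. All knockouts were well above the highest control, which here was replicate 1. Its log2 fold change was 2.35 (SE 0.24, edgeR adjusted p = 1.8e-05), and 2.18 without control replicate 4. This was the largest change among the 4 clustering genes.

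Dok7, the adaptor that activates MuSK from inside the fibre (chromosome 5, 35057084 to 35087831, plus strand), had 13.5, 16.8, 15.4 and 15.5 CPM in control muscle and 20.1, 26.8, 21.1 and 20.9 CPM in knockout muscle. The groups did not overlap, and knockout replicate 2 lay above the other knockouts. This gave a log2 fold change of 0.54 (SE 0.11, edgeR adjusted p = 0.0022).

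Lrp4, the agrin receptor (chromosome 2, 91457531 to 91513901, plus strand), had 12.9, 15.5, 14 and 15.1 CPM in control muscle and 17.5, 20.42, 20.9 and 16.6 CPM in knockout muscle. The groups did not overlap, but the lowest knockout and the highest control were close. The log2 fold change was 0.39 (SE 0.10, edgeR adjusted p = 0.0088), just inside the threshold of 0.01. The call was lost in each of the 8 fits that left out 1 library, with log2 fold changes of 0.30 to 0.43 and edgeR adjusted p of 0.012 to 0.042, and under the replicate block (edgeR adjusted p = 0.011). DESeq2 gave 0.34 with an adjusted p of 0.016.

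Rapsn, the scaffold that binds the receptor on its inner side (chromosome 2, 91035627 to 91045729, plus strand), had 34.1, 27, 31.1 and 29.6 CPM in control muscle and 28.4, 33.0, 26.4 and 27.3 CPM in knockout muscle. The groups overlapped over most of their range. Its fitted log2 fold change was -0.08 (SE 0.10, edgeR adjusted p = 0.48), and it became 0.59 (edgeR adjusted p = 0.00066) with library totals alone. On that scale the median of all genes was 0.73, so Rapsn still lay below it.

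Ache, the acetylcholinesterase that ends transmission (chromosome 5, 137288254 to 137294466, plus strand), had 70.6, 81.4, 81.4 and 28.9 CPM in controls 1 to 4 and 54.6, 57.7, 55.5 and 41.5 CPM in knockouts 1 to 4. As at Chrne, control replicate 4 was below every other library. With all libraries the log2 fold change was -0.32 (SE 0.27, edgeR adjusted p = 0.33). Without control replicate 4 it was -0.57 (edgeR adjusted p = 0.0028), past the threshold, and the 3 remaining controls lay above all 4 knockouts. With library totals alone the sign turned, to 0.36.

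**Figure D3:**
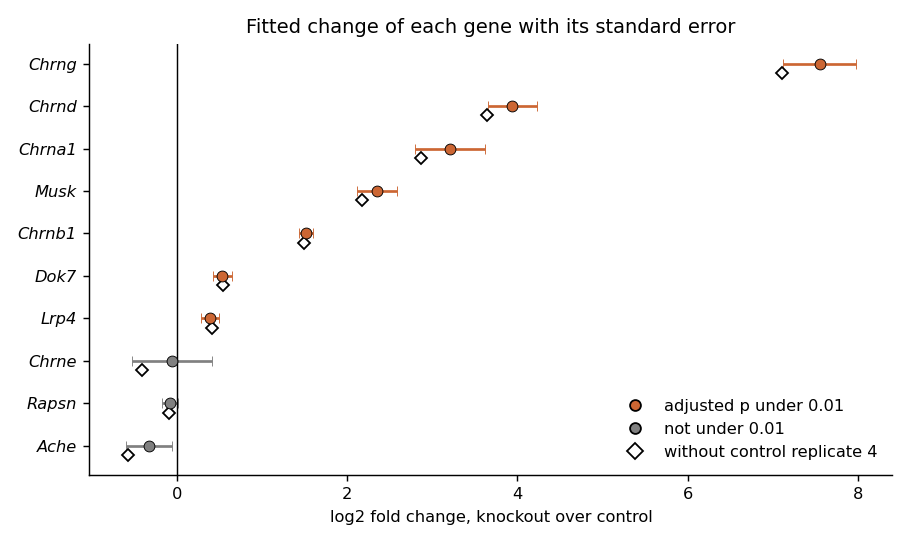
Filled points give the log2 fold change, knockout over control, of each of the 10 genes with its standard error from edgeR on 4 against 4 libraries, coloured where the adjusted p was under 0.01, and open diamonds the value without control replicate 4. The values run from -0.32 (Ache) to 7.55 (Chrng), and without control replicate 4 those of Chrne and Ache move to -0.41 and -0.57.

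Set per length, the order of the levels changed between the groups. In the controls it ran from Ache (29.6 ± 11.3 CPM per kb) over Rapsn (18.8 ± 1.82), Chrnb1 (17 ± 1.46) and Chrne (13 ± 7.41) to Dok7 (6.16 ± 0.543), Chrna1 (3.81 ± 2.03), Musk (2.11 ± 0.883), Lrp4 (1.53 ± 0.123), Chrnd (0.858 ± 0.444) and Chrng (0.0811 ± 0.0753; SD, n = 4 each). The ranges over the 4 controls overlapped between most neighbours in this order, the exceptions being Chrnd against Lrp4 and Chrng against Chrnd. Without control replicate 4 the control levels of the genes low in it were 35.2 ± 2.82 for Ache, 16.7 ± 1.52 for Chrne, 4.78 ± 0.733 for Chrna1, 2.37 ± 0.871 for Musk, 1.04 ± 0.294 for Chrnd and 0.108 ± 0.0642 CPM per kb for Chrng (SD, n = 3). The order was the same, and the ranges of Ache and Rapsn, Chrne and Dok7, Chrna1 and Musk, and Musk and Lrp4 then no longer overlapped. In the knockouts the order was Chrnb1 (48.6 ± 3.31 CPM per kb), Chrna1 (35.1 ± 5.31), Ache (23.7 ± 3.31), Rapsn (17.7 ± 1.82), Chrng (15.9 ± 5.0), Chrnd (13.2 ± 0.565), Chrne (12.5 ± 2.54), Musk (10.7 ± 1.40), Dok7 (8.95 ± 1.25) and Lrp4 (2.0 ± 0.229; SD, n = 4 each). There the ranges of Chrnb1, Chrna1 and Ache were separate from one another, those from Ache down to Dok7 overlapped from neighbour to neighbour, and Lrp4 lay apart. Chrng moved from the last place to that of a subunit at the level of Chrnd and Chrne.

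The genes whose pattern over the 8 libraries was most like that of Chrng and of Chrne were found as those with the smallest root mean square difference in log2 CPM, each gene centred on its control mean, among 12464 genes with a mean of at least 1 CPM. For Chrng these were Myh3, the embryonic myosin heavy chain (0.654 on the log2 scale), Fibcd1 (0.675) and Sln, the calcium pump inhibitor sarcolipin (0.688). Myh3 had 2.18 to 2.90 CPM in control muscle and 177 to 460 CPM in knockout muscle, Sln 0.315 to 0.646 and 52.6 to 114 CPM, and Fibcd1 no read in any control and 12.5 to 19.4 CPM in knockout muscle. The perinatal myosin Myh8 was also higher (log2 fold change 6.72, edgeR adjusted p = 2.2e-07). For Chrne the most alike were the Ets factor Etv4 (0.364), Pdzrn4 (0.377) and Ufsp1 (0.400). All 3 were lowest in control replicate 4, with 0.945, 0.189 and 6.18 CPM there against 5.33 to 8.09, 1.13 to 1.37 and 19.3 to 28 CPM in the other controls. The search was repeated without control replicate 4, after the data were seen. Etv4, Pdzrn4 and Ufsp1 then ranked 3098, 4226 and 237 for Chrne, so their likeness rested on that library. Myh3 stayed the gene most like Chrng (0.370), followed by Slc7a5 (0.482) and Myh8 (0.540), with Sln 6th and Fibcd1 7th.

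**Figure D4:**
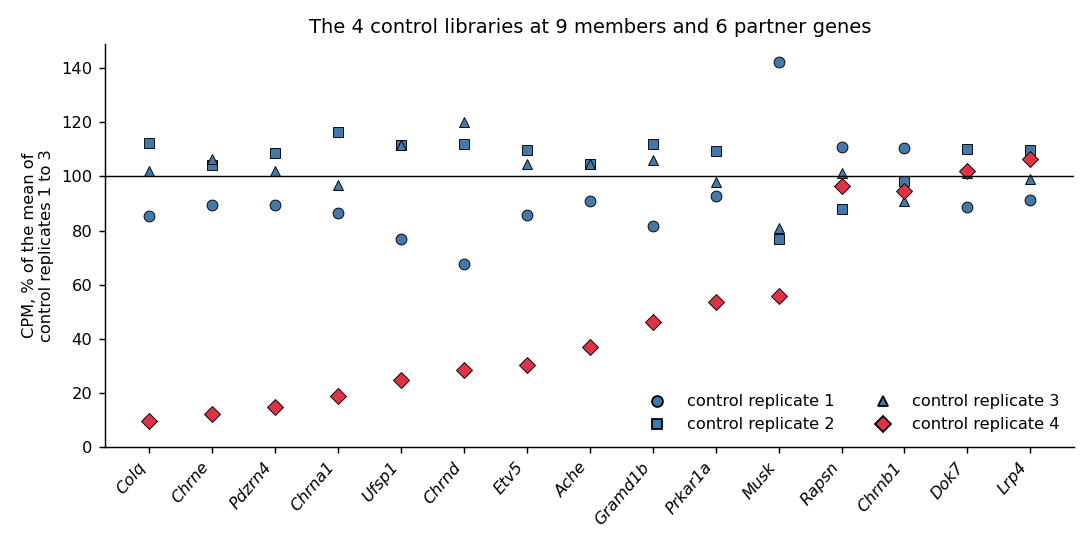
CPM of 9 of the 10 genes (Chrng, near 0 in every control, is left out) and of 6 partner genes in the 4 control libraries, as percent of the mean of control replicates 1 to 3, on a linear axis from 0. The 6 partner genes are from the 7 listed markers of the nuclei under the synapse. Vav3, the marker not shown, was at 122% in control replicate 4. Control replicate 4 is at 9.59% for Colq, 12.4% for Chrne, 18.9% for Chrna1 and 37.1% for Ache, and at the level of the other controls for Rapsn, Chrnb1, Dok7 and Lrp4.

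Of 70 other genes listed by their role at the junction, 60 were in the table: 18 were called higher, 9 lower and 33 neither, with a median log2 fold change of 0.02. Over all genes 23.6% were called higher and 21.1% lower, and the lists were not tested as sets. With library totals alone the counts were 39 higher and 5 lower. On that scale 9371 of the 14012 genes passed the threshold in either direction, and the median of all genes was 0.73.

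Of 14 agrin and neuregulin signalling genes, 5 were higher, 1 lower and 8 neither (median -0.02). The neuregulin receptors Erbb3 and Erbb2 had log2 fold changes of 1.28 and 1.14 (edgeR adjusted p = 6.9e-05 and 0.0017), and Etv5, an Ets factor of synaptic nuclei, rose by 2.07 (edgeR adjusted p = 0.00022), or 1.78 without control replicate 4. Etv5 had 15.8, 20.2, 19.2 and 5.55 CPM in control muscle and 65.9, 59.1, 69.2 and 59.1 CPM in knockout muscle, again with control replicate 4 lowest. Agrn, which encodes agrin, is named here after its values were seen. It had 20.8 to 29.9 CPM in control muscle and 31.8 to 32.8 CPM in knockout muscle (log2 fold change 0.35, edgeR adjusted p = 0.029).

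Of 11 genes of the synaptic basal lamina and cholinesterase anchors, 1 was higher, 2 lower and 8 neither (median -0.05). Prima1, the membrane anchor of acetylcholinesterase, fell by 4.18 on the log2 scale (edgeR adjusted p = 3.6e-06), from 51, 57, 47 and 95 reads in control muscle to 5, 9, 4 and 4 in knockout muscle. Colq, the collagen tail that ties the enzyme to the basal lamina, is named after its values were seen. It had 11.8, 15.5, 14.1 and 1.32 CPM in controls 1 to 4 and 33.1, 17.9, 47.4 and 31.7 CPM in knockouts 1 to 4. Every knockout was above every control, control replicate 4 was far below the others, and the log2 fold change of 1.61 missed the threshold (edgeR adjusted p = 0.022), while without control replicate 4 it was 1.23 and passed (edgeR adjusted p = 0.0055). Ache mRNA and that of its anchors thus had different values, with Prima1 down, Colq above the control range and Ache itself not called with all libraries.

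Of 11 postsynaptic scaffold genes, 5 were higher, 2 lower and 4 neither (median 0.54), and 4 were higher without control replicate 4. Sntb1, a syntrophin, rose by 1.79 (edgeR adjusted p = 0.00020) and Nes, the intermediate filament nestin, by 1.68 (edgeR adjusted p = 6.6e-06; 1.56 without control replicate 4), while Plec, the linker plectin, fell by 1.06 (edgeR adjusted p = 6.3e-06). None of 5 glycosylation enzymes linked to congenital myasthenia passed the edgeR test (median 0.09), with 1 at an unadjusted p under 0.05 and 1 called lower by DESeq2. All 5 were called higher with library totals alone, where the median of all genes was 0.73. Of 7 markers of the nuclei under the synapse, 3 were higher and 4 neither (median 0.99), and 4 were higher without control replicate 4. The rule named Etv5 and Gramd1b among them, and Gramd1b rose by 1.91 (edgeR adjusted p = 4.6e-05), or 1.69 without that library. The 4 not called had log2 fold changes of 1.61 (Colq), 0.32 (Pdzrn4), -0.19 (Ufsp1) and -0.55 (Vav3). Without control replicate 4 the values were 1.23 (Colq), -0.05 (Pdzrn4), -0.49 (Ufsp1) and -0.47 (Vav3), and Colq alone passed the threshold. With library totals alone the log2 fold changes of Ufsp1 and Vav3 were 0.50 and 0.11.

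Of 11 regulators of receptor gene transcription, 4 were higher, 3 lower and 4 neither (median 0.14). Myog, the myogenic factor myogenin, had 5.66, 9.43, 7.23 and 4.03 CPM in control muscle and 83.1, 104, 89.4 and 135 CPM in knockout muscle (log2 fold change 3.96, edgeR adjusted p = 1.0e-06, and 3.78 without control replicate 4). All knockouts were far above all controls. Runx1 rose by 3.39 (edgeR adjusted p = 1.2e-06). Dach2, a repressor of Myog, had 27, 27, 20 and 42 reads in control muscle and 0, 2, 2 and 2 in knockout muscle, where each library was within the limit that a count of 0 allows (edgeR adjusted p = 1.0e-05). Camk2a, a calcium-dependent kinase, fell by 1.90 (edgeR adjusted p = 1.3e-06). Hdac4, a class IIa histone deacetylase named after its values were seen, was also called lower. It had 52.9 to 92.3 CPM in control muscle and 29.4 to 35.7 CPM in knockout muscle. Its log2 fold change was -1.02 (edgeR adjusted p = 0.00053), and -0.34 with library totals alone (edgeR adjusted p = 0.059). Of 11 other nicotinic subunits listed only 3 were in the table, of which Chrnb2 was higher (log2 fold change 3.05, edgeR adjusted p = 9.5e-05, 0.129 to 0.889 CPM in the controls) and Chrna10 lower (-2.08, edgeR adjusted p = 7.9e-05). Without control replicate 4 the log2 fold change of Chrnb2 was 2.79. Each partner gene named here as risen or fallen kept its direction with library totals alone.

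**Figure D5:**
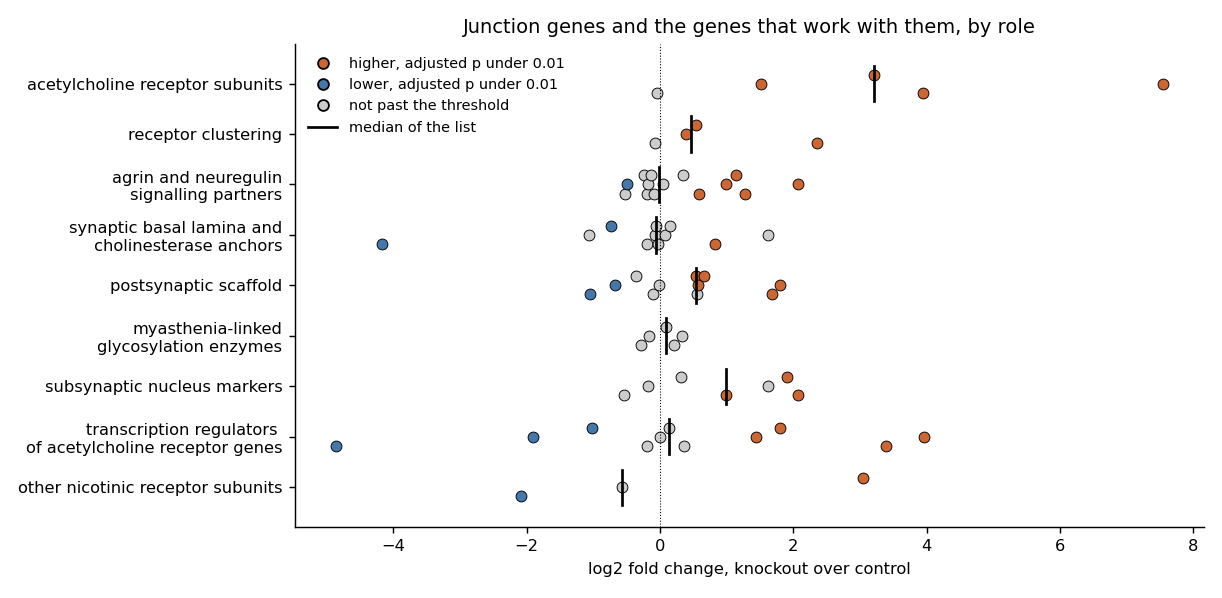
Each point is 1 gene of the table, placed by its log2 fold change, knockout over control, in rows by role, orange or blue where it was called higher or lower at an edgeR adjusted p under 0.01, with a line at the median of each row. Of the receptor subunits 4 of 5 were called higher with a median of 3.21, while the medians of the agrin and neuregulin partners (-0.02) and of the basal lamina genes (-0.05) are near 0.

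Markers of other cells were read beside these results. Of 11 Schwann cell markers of the deposited file, Erbb3 alone (also in the signalling list) was higher, and their summed level was 82.4 to 204 CPM in control muscle and 114 to 172 CPM in knockout muscle. Satellite cell markers summed to 45.0 to 55.5 CPM in control muscle and 51.8 to 71.9 CPM in knockout muscle, with 3 of 6 higher, 2 lower and their defining gene Pax7 not called (log2 fold change 0.28). Macrophage markers (1 of 9 called higher by edgeR and 4 by DESeq2, 5 at an unadjusted p under 0.05 and 7 higher with library totals alone) summed to 80.3 to 208 and 166 to 309 CPM, and adipocyte markers (0 of 8 called by edgeR and by DESeq2, 1 at an unadjusted p under 0.05) to 250 to 1520 and 717 to 2612 CPM. Endothelial markers (6 of 8 lower) summed to 353 to 504 and 259 to 289 CPM, and fibro-adipogenic markers (6 of 8 lower) to 2599 to 3723 and 1351 to 1680 CPM. With library totals alone 0 endothelial and 1 fibro-adipogenic marker were called lower. On that scale 9371 of the 14012 genes passed the threshold, and the median of all genes was 0.73. Of the 10 fibre markers 8 were lower and 1 higher, while the embryonic and perinatal myosins Myh3 and Myh8 together had 8.12 to 9.69 CPM in control muscle and 660 to 1469 CPM in knockout muscle. The part of these cell types in the values of the 10 genes was not tested. With the adipocyte markers as a covariate 6 of the 10 genes were called higher, all but Lrp4 of the 7.

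Reads could be shared with a neighbour at a few of these genes, since the use of strand in counting is not stated. The span of 4930544D05Rik lies inside Chrne on the opposite strand, at 4.23 and 3.49 CPM on average in controls and knockouts, and it was the lowest of the 12152 genes in control replicate 4 relative to the other controls (0.189 CPM against 5.58). In the GENCODE M21 annotation no exon of another gene overlapped the exons of Chrne. Ufsp1 begins 203 bases after Ache on the same strand and was, like Ache, low in control replicate 4. Mir8116 lies within Ache, at 0.442 and 0.845 CPM. The only exon overlaps of the 10 genes in that annotation were 98 bases of Ache with Gm42456 and 4 bases of Rapsn with Gm13778, both on the opposite strand, and neither of these 2 genes was in the table. The other neighbours within 10 kb, Mink1 (near Chrne), Lrpap1 (near Dok7), Psmc3 (near Rapsn) and Srrt (near Ache), had log2 fold changes of -0.44, -0.26, 0.17 and 0.06.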

How the data were processed

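RNA of QF muscle from 4 knockout and 4 control mice was sequenced as polyadenylated, strand-specific libraries (NEBNext Ultra II Directional), 1 per mouse. Per the submitters' processing notes and the study's methods, the authors mapped reads to GRCm38 with STAR 2.5.4b after bcl2fastq 2.20.0.422 and cutadapt, counted them with Rsubread, removed duplicate, chimeric, multimapping and poorly mapped reads, and left out genes with few reads in total. The deposited raw counts per gene were made this way, the annotation release and use of strand are not given in the sources used here, and the lowest gene total in the table was 51 reads. The deposited FPKM values, made by the authors from the counts and exon widths, were not used, and neither were the columns of the authors' own DESeq2 1.32.0 comparison (mean level, log2 fold change, error, statistic and p-values). The deposited exon width of a gene in bases served as its length.

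All values were computed from the counts with edgeR 4.0.16 in R 4.3.3 (beside limma 3.58.1, which edgeR needs) and Python 3.11.15 (numpy 2.4.6, scipy 1.17.1, pandas 2.3.3). All 14012 genes were fitted with edgeR's quasi-likelihood test on TMM-scaled libraries, with no covariate, and called where the Benjamini-Hochberg adjusted p was under 0.01. The biological coefficient of variation was 0.157. Group values are means and SDs. Single values per library were compared by exact two-sided permutation over 70 assignments, or over all assignments of the libraries kept where 1 was left out. Intervals are exact at 95% and cover counting error only. Alternatives covered scaling (RLE, upper-quartile, library totals alone, scaling without the 20 most abundant genes), filterByExpr, DESeq2 1.42.0, the threshold, the replicate block, an adipocyte covariate, added counts, exon width and each library left out. The scripts were tested on simulated data.

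The 10 genes and the gene lists (7 partner and 9 marker lists) were chosen with earlier results of these data known. From each partner list the genes past the threshold with an absolute log2 fold change of 1 or more were named, at most 4 per list, with the 3 genes most like Chrng and Chrne (on log2 CPM with a prior count of 2) and the genes within 10 kb of the 10 genes. Any other partner gene was named after its values were seen. Promoter sequences are from RefSeq (GRCm38.p6).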

Additional observations from a re-analysis of the deposited data

Results flagged for a closer look

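In 114 groups of 4 libraries, the members, named genes and ratios were searched for a library far from the other 3, by the gap to its nearest neighbour over the whole range (Dixon's 95% limit). The search found 5, where chance alone gives about 1 in 20 groups, or 5.7. The summed CPM per kb of the 5 receptor subunits was 19.6 in control replicate 4 against 38.9 to 41.2 in the other controls. Dok7 had 26.8 CPM in knockout replicate 2 against 20.1 to 21.1 in the other knockouts. Dach2 had 0 CPM in knockout replicate 1 against 0.0795 to 0.0916, a difference of 2 reads per library. Hdac4, which encodes a class IIa histone deacetylase, had 92.3 CPM in control replicate 3 against 52.9 to 58.9. Mink1, the neighbour of Chrne, had 53.8 CPM in control replicate 1 against 61.6 to 62.3.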

How the results depend on the processing

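Chrna1, Chrnb1, Chrnd, Chrng, Musk and Dok7 kept their direction and their call in each of the 16 alternative fits, whereas Lrp4 kept its call in 3 of 16. The number of the 10 genes called higher was 6 to 8 over all alternatives and 6 in each fit that left out 1 library, and the number called lower was 0 to 1, the 1 being Ache without control replicate 4. With library totals alone the log2 fold changes of Chrne, Rapsn and Ache turned to 0.63, 0.59 and 0.36. That of Chrne was 0.17 under the replicate block, 0.28 with the adipocyte covariate and -0.41 to 0.14 with 1 library left out, none past the threshold. The replicate block kept the difference of 7.44 in the log2 ratio of Chrng to Chrne, with an exact permutation p of 0.125, and changed no call of the 10 genes other than Lrp4. The replicate numbers were not treated as pairs, since the correlations of the deviations of same-numbered libraries were 0.118, 0.0031, 0.42 and 0.138 and replicate 2 did not correlate best with its own number. Control replicates 1, 3 and 4 did correlate best with the knockout of their own number. Without division by exon width the shares of Chrnb1 and Chrne differed by -21.8 and -18.8 percentage points (exact permutation p = 0.0286 each). With 1 library left out they differed by -19.0 to -4.48 and -31.7 to -20.2 points. The partner lists gave 39 genes higher and 5 lower with library totals alone, where 9371 of all 14012 genes passed the threshold, and the cause was not tested. The log2 ratio without an added count gave no value, since control replicate 4 held no Chrng read. At 3 reads or fewer, as for Chrng in 3 controls and Dach2 in the knockouts, depth limits each library's value.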

Other observations

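The genes lowest in control replicate 4 relative to the other controls, named after their values were seen, included further genes beside those of the junction. Of the 12152 genes ranked, Arc was the 2nd (0.441 against 7.11 CPM in control replicates 1 to 3), Colq the 3rd, Etv4 the 7th, Crym the 8th (0.819 against 5.24 CPM) and Nog, which encodes noggin, the 19th (1.64 against 6.88 CPM). In the knockouts Arc was at 0.741 CPM, and Crym and Nog at 27.9 and 47.2 CPM on average.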
